A study of Mus musculus with 147 samples.

Results

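The wells described here are 49 of the 96 wells that held single *Renin-null* cells, out of 147 wells in the whole series, and they were divided by how much *Acta2* mRNA each held. A well entered with a total of 100000 counts or more, 1000 genes or more and no more than 25% of its counts in the mitochondrially encoded genes, and when *Akr1b7* or *Acta2* reached 100 counts per 1000000 counts (CPM, with the mitochondrially encoded genes left out). Of the 96 wells, 39 failed the limits on counts, genes or mitochondrial share and 8 passed them with both genes under 100 CPM. The 34 wells with at least 2000 CPM of *Acta2* are called Acta2-high and the 15 wells below it Acta2-low. Both groups were therefore chosen by measured values, so *Acta2* is left out of the gene results and no test between the groups was run.

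The cells came from adult *Ren1c-/- Ren1c-YFP* mice, which lack the renin gene and carry YFP driven by the 5′ regulatory sequence of *Ren1c*, and the WT cells of the series from adult *Ren1c+/+ Ren1c-YFP* mice, all C57BL/6. YFP-positive cells of the kidney cortex were sorted, held one to a well in the Fluidigm C1 System and turned into cDNA with SMART-Seq v4, which has no molecular identifiers. YFP therefore reports activity of the *Ren1c* regulatory sequence, not the presence of renin. The cells came from several mice and captures. The labels put the *Renin-null* wells in 2 libraries, YFP1 and YFP2, and name no mouse or capture for a well, so wells are not replicates of a condition, and mouse and library cannot be told apart.

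Renin cells and arteriolar smooth muscle cells share a lineage, and cells along the afferent arteriole can hold features of both. Smooth muscle α-actin, encoded by *Acta2*, forms the thin filaments on which the smooth muscle myosin *Myh11* pulls when its light chain *Myl9* is phosphorylated by the kinase *Mylk*. Calponin (*Cnn1*), transgelin (*Tagln*) and leiomodin (*Lmod1*) are actin-binding proteins of the same apparatus, and many of these genes carry CArG boxes, the DNA motif bound by serum response factor. *Akr1b7*, an aldo-keto reductase, marks renin cells also when renin is deleted.

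*Ren1*, the deleted gene, was close to absent from both groups. It gave 7 counts over the 34 Acta2-high wells (highest well 3.25 CPM) and 29 counts over the 15 Acta2-low wells (highest well 10.4 CPM). In the 15 WT wells that passed the same limits on counts, genes and mitochondrial share, *Ren1* ranged from 740 to 339358 CPM (median 61657). The *Renin-null* wells thus hold almost no *Ren1* transcript.

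*Acta2* (chromosome 19, 34241090 to 34255590, minus strand, GRCm38) ranged from 2673 to 27849 CPM in the Acta2-high wells (median 7481) and from 7.97 to 1707 CPM in the Acta2-low wells (median 832). The 3 wells nearest below the limit held 1504, 1666 and 1707 CPM and the 3 nearest above it 2673, 2887 and 3009 CPM. All but 1 of the Acta2-low wells held at least 100 CPM, so low here means less *Acta2*, not none. YFP1 gave 15 Acta2-high and 8 Acta2-low wells, and YFP2 gave 19 and 7. Total counts per well were alike, with 329891 to 14505243 (median 6629988.5) in Acta2-high and 151022 to 10776522 (median 6706908) in Acta2-low wells. The number of genes with a count was also alike (medians 6448.5 and 6187), and the mitochondrially encoded genes held medians of 5.49% and 3.74% of the counts.

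Some wells were nearly identical, and the cause was not tested. Wells 46 and 94 correlated at 0.985 across genes, wells 45 and 93 at 0.984, and wells 47 and 95 at 0.981, against a median of 0.353 between members. All 6 are Acta2-high, and each pair holds 1 well of YFP1 and 1 of YFP2, so values of the libraries may not be independent. Wells 48 and 96 correlated at 0.962, and of these only well 48 is a member. The next pair of *Renin-null* wells correlated at 0.832. Counts within these 4 pairs differed by more than sampling noise (chi-square over degrees of freedom 34.0 to 86.8). Total numbers of higher and lower genes are given with all 49 wells and with each of the 3 pairs counted once, which leaves 46. Numbers within gene lists, and numbers of wells where nothing else is stated, are with all 49 wells.

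*Akr1b7* (chromosome 6, 34412334 to 34423142, plus strand), like *Acta2*, decided which wells entered, so its values are a description. It ranged from 0.805 to 10487 CPM in Acta2-high wells (median 1625) and from 0 to 8651 CPM in Acta2-low wells (median 2487). The groups overlapped over nearly the whole range, and 29 of 34 and 13 of 15 wells held at least 100 CPM. By summed counts *Akr1b7* was at 2406 CPM in Acta2-high and 3199 CPM in Acta2-low wells, a log2 ratio of -0.41, with 0.26 in YFP1 and -0.82 in YFP2. The 8 wells that passed the limits on counts, genes and mitochondrial share but did not enter held at most 11.7 CPM of *Acta2* and 3.53 CPM of *Akr1b7*. Leaving them out moves the relation of these genes, with a Spearman's rho of -0.02 over the 49 wells and 0.31 over all 57 passing wells, so no relation is read from the 49.

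**Figure D1:**
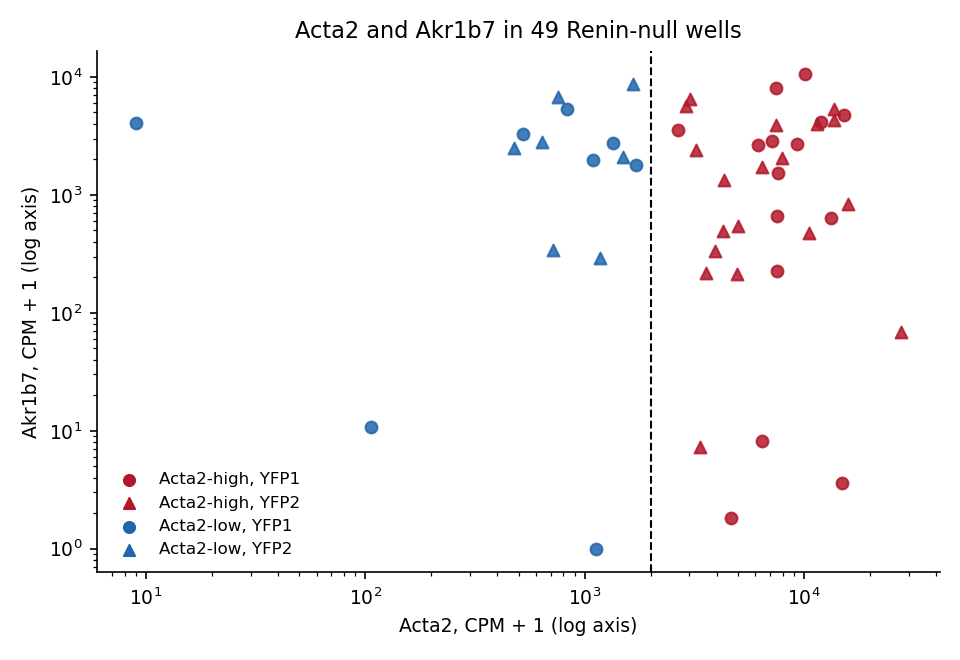
Each point is 1 of the 49 *Renin-null* wells, with *Acta2* on the x axis and *Akr1b7* on the y axis, both as CPM + 1 on log axes. Color gives the group, shape the library and the dashed line the limit of 2000 CPM. *Akr1b7* spans a wide range on both sides of the line, and wells low in both genes are absent because the rule left them out.

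Genes were compared by the log2 ratio of CPM from counts summed over the wells of a group, Acta2-high over Acta2-low. A gene was considered when it had a count in at least 20% of the wells of either group and its summed counts came to 10 CPM or more in the higher group, which left 7931 of 35438 genes. A gene was past the fold when the ratio was at least 2-fold over all wells and in YFP1 and YFP2 separately, and the mean of log2(CPM + 1) over wells differed by at least 1 in the same direction. This was met by 539 genes higher in Acta2-high wells (6.80% of those considered) and by 338 lower (4.26%). With each near-identical pair counted once the numbers were 494 and 332, of which 433 and 311 were among the first.

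Single wells carried much of these sums. Over all genes considered, the median share of a group's counts that came from its highest well was 50.1% in Acta2-high and 69.7% in Acta2-low wells. The median gene reached 10 CPM in 14.7% of Acta2-high and 13.3% of Acta2-low wells. The limit of 10 CPM for calling a gene present was chosen after the values were seen. The median log2 ratio of all genes considered was 0.25, with 0.88 in YFP1 and 0.53 in YFP2, and a gene list is read against these values.

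The gene with the largest difference of mean log2(CPM + 1) among those past the fold (5.09) was *P2rx1* (chromosome 11, 72999103 to 73015200, plus strand), which encodes an ATP-gated cation channel of arterial smooth muscle. It ranged from 0.246 to 2397 CPM in Acta2-high wells (median 627) and from 0 to 421 CPM in Acta2-low wells (median 1.27). No Acta2-low well was above the Acta2-high median, and 20 of 34 Acta2-high wells were above every Acta2-low well. *P2rx1* reached 10 CPM in 28 of 34 wells (82.4%, exact Clopper-Pearson 95% interval 65.5% to 93.2%) against 5 of 15 (33.3%, 11.8% to 61.6%). With the near-identical pairs counted once it was 25 of 31 wells. These intervals cover the counting of wells only, not differences between mice, and they treat near-identical wells as separate. *P2rx1* was picked for its difference between these same wells, so the intervals are no test of it. The same holds for the upper limit given for *Gja4*. By summed counts *P2rx1* was at 708.2 against 81.4 CPM (exact Poisson 95% intervals 704.5 to 711.9 and 79.4 to 83.3). These intervals take each read as a separate count. Without molecular identifiers reads can be copies, so the intervals are too narrow and leave out the spread between wells. Of its Acta2-low counts, 64.4% came from 1 well. Its log2 ratio was 3.12, with 2.76 in YFP1 and 3.31 in YFP2.

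*Mustn1*, a small nuclear protein of the musculoskeletal system (chromosome 14, 30879200 to 30881610, plus strand), was also higher in Acta2-high wells. It ranged from 0.213 to 3598 CPM there (median 779) and from 0.224 to 817 CPM in Acta2-low wells (median 110). The ranges overlapped, but 15 of 34 Acta2-high wells were above every Acta2-low well and 1 Acta2-low well was above the Acta2-high median. Its log2 ratio was 2.45, with 1.69 in YFP1 and 3.11 in YFP2.

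The other 13 genes of the 15 with the largest differences past the fold were present in fewer wells. *Gja4*, which encodes the gap junction protein connexin 37, reached 10 CPM in 14 of 34 Acta2-high wells and in 0 of 15 Acta2-low wells (0%, upper limit 21.8%), with a highest well of 1470 against 8.63 CPM. All 6 near-identical wells are among the 14, and with each pair counted once it reached 10 CPM in 11 of 31 wells. *Itga7*, a laminin-binding integrin subunit of muscle, reached 10 CPM in 16 and 3 wells (highest well 6084 and 87.8 CPM). *Mcam*, the adhesion molecule CD146 of mural and endothelial cells, reached it in 25 and 6 wells and had medians of 99.7 and 1.34 CPM. *Inpp4a*, a phosphoinositide phosphatase, reached it in 23 and 3 wells (medians 151 and 1.49 CPM). The spectrin chain *Sptan1*, the homeobox factor *Cux1*, the securin gene *Pttg1*, the secreted protein gene *Wfdc1*, the Golgi GTPase *Arl1*, the kinase *Hipk1*, the ribosomal protein gene *Rpl22*, *Kmt2e* and *Fundc2* had log2 ratios from 2.20 to 6.57. Their roles are spread over cytoskeleton, transcription, cell division and membrane traffic. All 15 stayed past the fold with the near-identical pairs counted once. They also did when each gene's highest well was left out of each group, but only in the ratio over all wells. The ratios within each library and the means of log2(CPM + 1) still held that well, so the whole rule was not repeated without it.

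Of the 15 genes with the largest differences in the other direction, 14 are described. *Cxcl12*, a chemokine, reached 10 CPM in 9 of 34 Acta2-high and 8 of 15 Acta2-low wells, with medians of 0.209 and 20.5 CPM and a log2 ratio of -3.20. Of the Acta2-low wells, 14 of 15 were above the Acta2-high median of *Cxcl12*. *Zfp207* had medians of 7.88 and 261 CPM, and *Slc12a2*, the sodium-potassium-chloride cotransporter, had medians of 1.77 and 71.1 CPM. The other 11 were *Elovl5*, which elongates fatty acids, the dystrophin relative *Utrn*, the circadian factor *Clock*, *Rnf213*, the mitophagy receptor *Bnip3l*, *Fam135a*, the casein kinase 2 subunit *Csnk2a1*, the SUMO-activating subunit *Uba2*, the coatomer subunit *Arcn1*, *Wwc2* and *Zmat5*, with log2 ratios from -6.44 to -1.05. *Utrn* and *Uba2* were no longer past the fold with the near-identical pairs counted once. When each gene's highest well was left out of the ratio over all wells, 13 of the 15 stayed past the fold. The other parts of the rule still held that well. Of the counts of *Bnip3l* and *Arcn1* in Acta2-low wells, 82.8% and 80.1% came from 1 well.

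The contractile genes were examined as a list of 25 besides *Acta2*, of which 23 were considered. Of these, 22 had a log2 ratio above 0 (54.2% of all genes considered did), but only *Mustn1*, *Mylk* and *Synpo2* were past the fold (13.0%, against 6.80% of all genes considered), and none was lower. *Mustn1*, a nuclear protein, is on the list by choice and raises this share, and the list was made with earlier results of these data known. The median log2 ratio of the list was 1.03, against 0.25 for all genes considered. The libraries differed. In YFP2 the list median was 2.13 (all genes 0.53) and 18 of 23 genes were at least 2-fold higher by summed counts in that library, against 44.2% of all genes. In YFP1 it was 0.31, below the 0.88 of all genes, and 5 of 23 genes were at least 2-fold higher, against 47.0% of all genes. The difference between the libraries was not tested.

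The same split was seen well by well. The summed level of the 25 genes in YFP2 ranged from 18329 to 91356 CPM in Acta2-high wells (median 36597) and from 8471 to 26267 CPM in Acta2-low wells (median 18220). In YFP1 it ranged from 24506 to 48081 CPM (median 35829) and from 12362 to 50162 CPM (median 35345). The Acta2-low wells of YFP1 therefore held as much contractile transcript as the Acta2-high wells, while those of YFP2 held less. The highest of all Acta2-low wells, well 43 of YFP1, held 24492 CPM of *Tagln*, more than any Acta2-high well, with 1128 CPM of *Acta2*.

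*Tagln* (chromosome 9, 45929619 to 45936058, minus strand) was at 10 CPM or more in every member. It ranged from 1243 to 18859 CPM in Acta2-high wells (median 6902) and from 15.2 to 24492 CPM in Acta2-low wells (median 3464). The log2 ratio was 0.84, with 0.26 in YFP1 and 1.47 in YFP2. *Myh11* ranged from 6.07 to 7757 CPM (median 1969) and from 2.86 to 8901 CPM (median 1187), with 0.16 in YFP1 and 2.31 in YFP2. Both genes overlapped widely between the groups.

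*Cnn1* and *Lmod1* were present or near absent from well to well. In the YFP2 Acta2-low wells, the highest level was 34.8 CPM for *Cnn1* and 15.0 CPM for *Lmod1*, and no well reached 100 CPM of either. In the YFP1 Acta2-low wells, *Cnn1* was at 913, 1489 and 1708 CPM in wells 43, 3 and 35, which also held 160 to 632 CPM of *Lmod1*. *Lmod1* was also at 605 CPM in well 6, where *Cnn1* was at 92.04 CPM. These 4 YFP1 wells lay among the 7 Acta2-low wells with the most *Acta2*, at 1093 to 1707 CPM. Among Acta2-high wells, *Cnn1* reached 100 CPM in 17 of 34 and *Lmod1* in 18 of 34.

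*Mylk* was the contractile gene whose ratio was closest between the libraries, with log2 ratios of 1.06 in YFP1 and 1.21 in YFP2. Its medians were 1035 CPM in Acta2-high and 393 CPM in Acta2-low wells, and 32 of 34 against 11 of 15 wells held at least 100 CPM. *Synpo2*, an actin-bundling protein, was past the fold at 2.11, but 59.1% of its Acta2-high counts came from 1 well. The tropomyosins *Tpm1* and *Tpm2* were at log2 ratios of 1.03 and 1.36, with *Tpm2* at 0.93 in YFP1 and 1.62 in YFP2. *Ppp1r12a*, the targeting subunit of myosin phosphatase, had 0.03, and *Pln*, the inhibitor of the sarcoplasmic calcium pump, had -0.82, with -1.52 in YFP1, 2.21 in YFP2 and 74.98% of its Acta2-low counts in 1 well. The nonmuscle actins *Actb* and *Actg1* had 0.47 and 0.69, with neither past the fold.

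**Figure D2:**
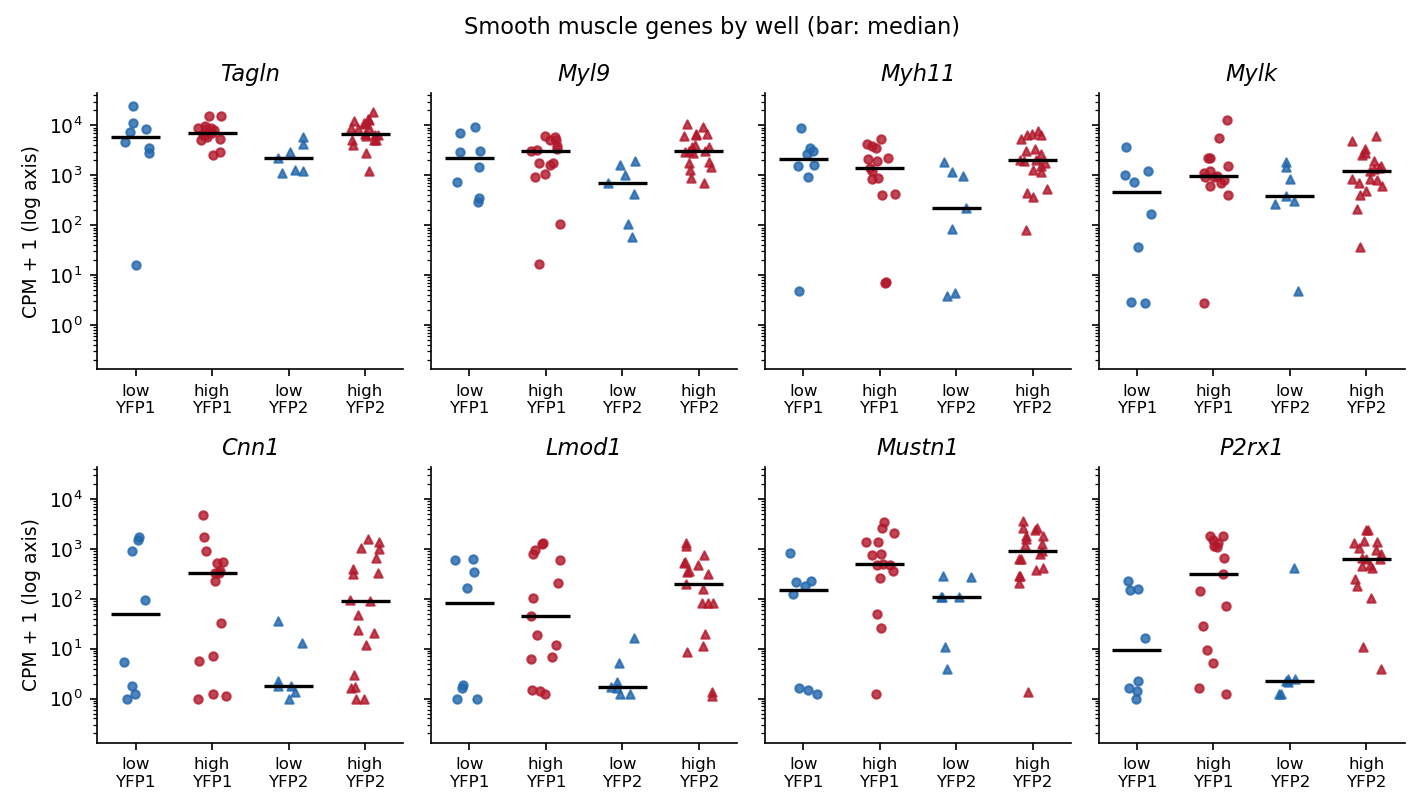
Each point is 1 well, the y axis gives CPM + 1 on a log axis for 8 smooth muscle genes, and the bars are medians of 8 Acta2-low and 15 Acta2-high wells of YFP1 and 7 and 19 of YFP2. *Tagln*, *Myl9*, *Myh11*, *Cnn1* and *Lmod1* have a lower median in Acta2-low wells of YFP2, and in YFP1 so do *Tagln*, *Myl9* and *Cnn1* but not *Myh11* and *Lmod1*. Their ranges overlap in both libraries. *P2rx1* and *Mustn1* have the lower median in Acta2-low wells of both libraries.

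**Figure D3:**
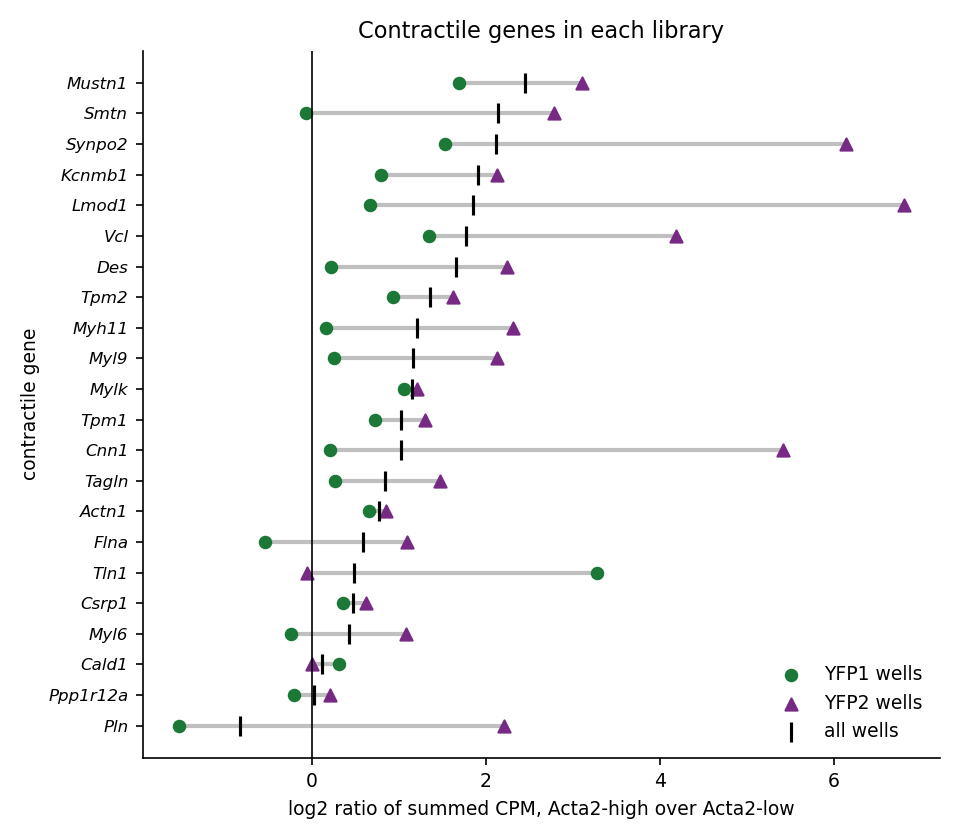
The x axis gives the log2 ratio of summed CPM, Acta2-high over Acta2-low, for contractile genes that were considered, in YFP1 wells, YFP2 wells and all wells. The YFP2 value is to the right of the YFP1 value for most genes, with *Tln1* and *Cald1* the other way.

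Along *Acta2* over all 49 wells, Spearman's rho with genes of the contractile list was highest for *Mustn1* (0.58), *Tagln* (0.51), *Mylk* (0.47) and *Tpm2* (0.44). It was near 0 for *Ppp1r12a* (-0.06) and *Pln* (0.04). For all genes considered the median was -0.06, with 5% of genes below -0.31 and 5% above 0.24. Within the 34 Acta2-high wells alone rho was 0.41 for *Mylk*, 0.37 for *Tagln*, 0.25 for *Tpm2* and 0.21 for *Mustn1*. Outside the contractile list, *P2rx1* had 0.48 over all 49 wells and 0.004 within the Acta2-high wells. *Inpp4a* had 0.23 and -0.28, and *Gja4* had 0.46 and 0.49. All 6 near-identical wells are Acta2-high and were counted separately here. These are descriptions over wells that share libraries and a CPM scale that contains *Acta2* itself.

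Of 14 regulators of the contractile genes in the file, 11 were considered, *Mef2c* was past the fold (9.09%, against 6.80% of all genes considered; log2 ratio 1.81, medians 514 and 234 CPM), none was lower, and the list median was 1.20, with 1.88 in YFP1 and 0.87 in YFP2. *Myocd*, the myocardin coactivator, had a log2 ratio of 0.03, with 10 of 34 and 6 of 15 wells at 10 CPM or more. *Notch3*, a Notch receptor of mural cells, had 1.20 and was not past the fold in YFP2 (0.87). *Klf4* had -0.04.

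In the renin cell list, 19 of 22 genes were considered, 5 were higher past the fold (26.3%, against 6.80% of all genes considered) and none was lower. The median log2 ratio was 1.22, with 1.02 in YFP1 and 1.32 in YFP2. The share and the median include *Akr1b7*, which decided which wells entered and was not past the fold. Among the 5 were *Gjc1* (connexin 45), *Adcy5* (an adenylyl cyclase), *Crebbp* (the CREB-binding protein) and *Nr2f2* (the nuclear receptor COUP-TFII). *Crebbp* reached 10 CPM in 27 of 34 and 9 of 15 wells, with medians of 169 and 50.6 CPM. *Nr2f2* reached it in 34 of 34 and 14 of 15, with medians of 369 and 255 CPM. For *Adcy5*, 89.4% of the Acta2-high counts came from 1 well.

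Of the mural and pericyte list, 16 of 18 genes were considered, *Mcam* and *Gja4* were higher past the fold and none was lower (12.5% higher, against 6.80%). The median log2 ratio was -1.07, with -1.11 in YFP1 and 0.22 in YFP2, and the median difference of mean log2(CPM + 1) was 0.28, so the sign depends on the library and the measure. *Rgs5*, a regulator of G protein signaling that marks pericytes, was at 10 CPM or more in every member, with medians of 18730 CPM in Acta2-high and 16003 CPM in Acta2-low wells. *Pdgfrb* had a log2 ratio of -1.95 by summed counts and reached 10 CPM in 17 of 34 and 5 of 15 wells, so the sum and the share of wells point in different directions. Of the extracellular matrix list, 30 of 40 genes were considered, *Eln* (elastin, 3.15) and *Ltbp4* (2.61) were higher past the fold and none was lower. This is 6.67% of the list, near the 6.80% of all genes considered, and the median log2 ratio was 0.10. *Mgp*, the matrix Gla protein, had -1.39, and 54.8% of its Acta2-low counts came from 1 well.

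Of 19 genes of the response to dissociation that were considered, *Hspa1a* and *Socs3* were higher past the fold (10.5%, against 6.80%) and none was lower. The median log2 ratio was 0.17, but -0.36 in YFP1 and 1.05 in YFP2 (all genes 0.88 and 0.53). In YFP2, 10 of the 19 were at least 2-fold higher and 1 at least 2-fold lower (all genes 44.2% and 30.3%), and in YFP1 4 and 4 (47.0% and 27.9%). The median of this list was thus above that of all genes in YFP2 and below it in YFP1, as for the contractile list, and its part in that result was not tested. *Fos*, an immediate early gene, was at 5245 and 4663 CPM by summed counts, with log2 ratios of -0.91 in YFP1 and 1.19 in YFP2. Of 18 genes of oxidative phosphorylation, *Sdhb*, *Uqcrc2* and *Atp5a1* were higher past the fold (16.7%, against 6.80%), none was lower, and the median was 0.14, with -0.07 in YFP1 and 0.75 in YFP2. Of the 10 cell cycle genes 4 were considered and none was past the fold. Their median was -2.95, with 1.19 in YFP1 and -3.02 in YFP2.

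Markers of other kidney cells differed widely from well to well. The proximal tubule list of 18 genes had a median summed level of 30.6 CPM in Acta2-high and 13.6 CPM in Acta2-low wells, with 2 of the genes at 0 in all Acta2-low wells. It reached 23918 CPM in well 69 (Acta2-low) and 12176 CPM in well 48 (Acta2-high), and over 1% of counts in no other member. It was over 1000 CPM in 5 of 34 and 2 of 15 wells, and with the near-identical pairs counted once in 3 of 31 Acta2-high wells. The endothelium list of 12 genes had medians of 10.7 and 42.8 CPM, and it reached 11408 CPM in well 83 (Acta2-low), where *Emcn* held most of it. It was over 1000 CPM in 3 of 34 and 3 of 15 wells. Of the Acta2-low counts of *Emcn*, *Cdh5* and *Pecam1*, 99.9%, 98.6% and 95.5% came from 1 well.

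Only 1 gene of each of these lists was lower past the fold, *Cyp4b1* (6.67% of the genes considered) and *Eng* (12.5%), against 4.26% of all genes. Of the podocyte list 7 genes were considered, 1 was higher past the fold (14.3%, against 6.80%) and none was lower, and the summed podocyte level had medians of 48.5 and 55.03 CPM. It was over 1000 CPM in 3 Acta2-high wells, with 5564 CPM in well 87 and 3275 CPM in well 75, where 7 of the 8 genes reached 10 CPM, against a highest of 643 CPM in Acta2-low wells. The podocyte median log2 ratio was 1.94, with 1.48 in YFP1 and 1.98 in YFP2. That of the 15 proximal tubule genes considered was -1.44, with 1.51 in YFP1 and -1.40 in YFP2. That of the 8 endothelium genes was -3.38, with -0.59 in YFP1 and -4.91 in YFP2. The fibroblast list had medians of 247 and 71.9 CPM, with *Gsn* most abundant and 3 of 11 genes considered, none past the fold. It was over 1000 CPM in 9 of 34 and 2 of 15 wells, and with the pairs counted once in 7 of 31. No gene of the loop and distal tubule list or of the macrophage and leukocyte list was considered (median summed levels 3.37 and 0.848 CPM, and 0.364 and 0.382 CPM), and of the collecting duct list only *Aqp2* was, with 99.6% of its Acta2-high counts in 1 well. With the wells of over 1% proximal tubule transcripts left out, 500 genes were higher and 374 lower, and with the well of over 1% endothelial transcripts left out 663 and 301. The part these transcripts have in single genes was not tested.

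**Figure D4:**
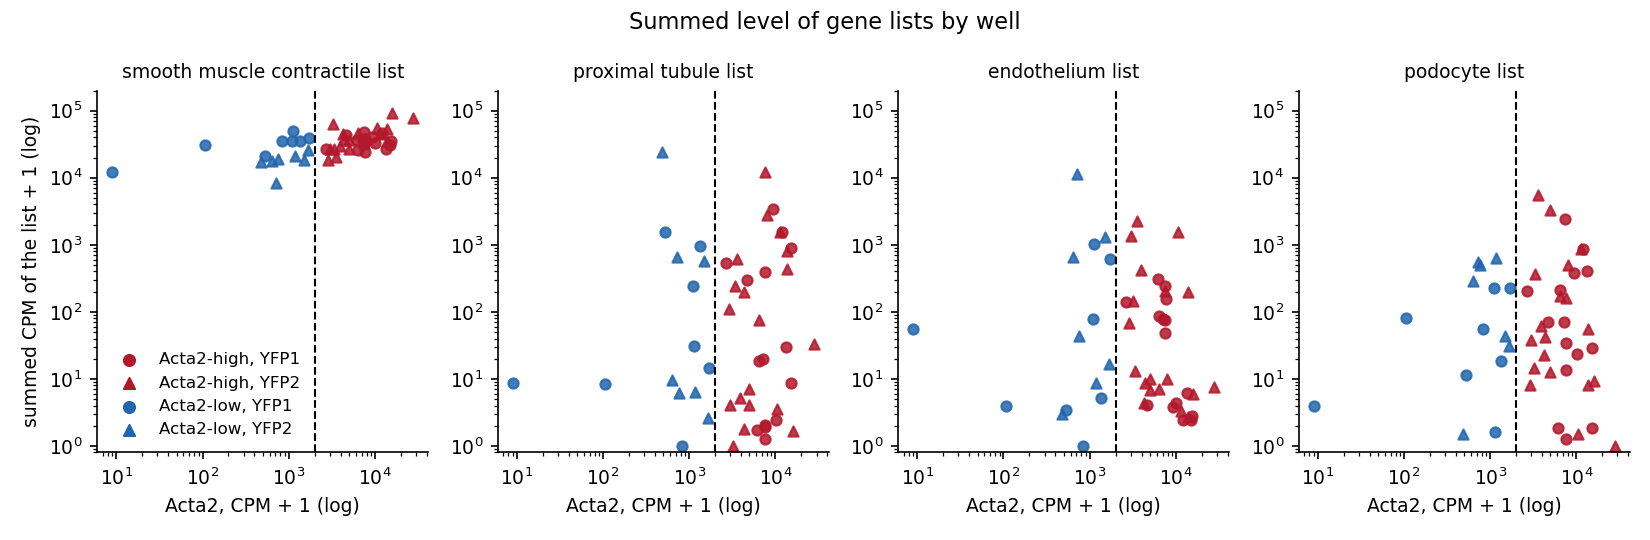
Each point is 1 well, with *Acta2* as CPM + 1 on the x axis and the summed CPM of a list + 1 on the y axis, both log axes, and the limit of 2000 CPM dashed. The contractile list varies little beside the other lists, while proximal tubule and endothelial transcripts exceed 1% of the counts in single wells.

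Wells that the rule did not use were divided at the same 2000 CPM. Among the 15 WT wells that passed the limits, 12 were above and 3 below, and of the genes with a ratio, 80.9% of those higher in *Renin-null* Acta2-high wells had a ratio above 0, against 76.8% of those lower and 79.5% of all considered. The 3 wells thus gave a share near that of all genes. Among the 39 *Renin-null* wells that failed the limits, 10 were above and 29 below, and the shares were 76.97%, 65.2% and 69.6%. Most of these wells were shallow, with medians of 193440 and 210083 counts outside the mitochondrially encoded genes. The shares come from summed counts, in which the deep wells weigh most. The mitochondrial share moved with the division, with a median of 32.0% in the wells above the limit and 65.8% in those below, and its part in these values was not tested. Failing well 96, which is above the limit, is the near-identical partner of member well 48. It held 8860613 total counts, the most of any failing well, and the next deepest above the limit, well 66, held 3998271. The summed values above the limit thus rest in large part on a well that is not independent of the members.

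Single genes can be followed there. In the failing wells the medians of *P2rx1* were 220 and 11.4 CPM, those of *Mustn1* 451 and 26.8 CPM and those of *Tagln* 3719 and 376 CPM. In the WT wells *P2rx1* had medians of 45.6 and 0.177 CPM, *Mustn1* 591 and 527 CPM and *Tagln* 5872 and 2011 CPM. *Itga7* had WT medians of 374 and 0 CPM, and in the failing wells 3.51 and 2.63 CPM. By the difference of mean log2(CPM + 1), which was above 0 for 73.1% of all genes considered in WT and 69.1% in failing wells, 13 of the 15 named higher genes and 8 of the 15 named lower genes were higher in WT wells above the limit, and in the failing wells 12 and 9. By the ratio of summed counts the numbers were 14 and 10 in WT wells, but 10 and 10 in the failing wells. *Akr1b7* had medians of 3450 and 4300 CPM in WT wells, and of 817 and 129 CPM in the failing *Renin-null* wells.

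CArG boxes were searched in RefSeq promoters (GRCm38.p6, 250 bases before to 50 after a start), as CC, 6 bases of A or T and GG, a motif that reads the same way on both strands. Of the 25 contractile genes 21 had a promoter, and *Tagln*, *Myh11* and *Actg2* were among those with no entry. The motif was in 3 of the 21, *Myl9*, *Vcl* and *Myl6*, against 1.81% of 27025 genes with a promoter. None of the promoters of *Mustn1*, *Mylk*, *Synpo2*, *P2rx1* and *Acta2* held these letters in this window. Of the 407 promoters of genes higher past the fold 1.97% held it, and of the 266 of genes lower 1.504%. A match is only a match of letters. The stretches around it in *Myl9* (plus strand, chr2:156775283-156775332) and *Vcl*, which encodes the actin-linking protein vinculin (plus strand, chr14:20929151-20929200), are printed 5′ to 3′ to show the motif, in capitals, upstream of 2 genes of the list.
Myl9: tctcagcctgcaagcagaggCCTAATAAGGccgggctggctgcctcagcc
Vcl: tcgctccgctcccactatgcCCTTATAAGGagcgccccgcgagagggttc
The motif begins 161 bases before the start in *Myl9* and 227 bases before it in *Vcl*. *Myl9*, the regulatory light chain of smooth muscle myosin, had medians of 3099 CPM in Acta2-high and 998 CPM in Acta2-low wells and a log2 ratio of 1.16, with 0.26 in YFP1 and 2.13 in YFP2. *Vcl* had 1.77, with 1.35 and 4.18, and a difference of mean log2(CPM + 1) of 0.70, so it was not past the fold.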

How the data were processed

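Per the labels, reads were checked with FastQC 0.11.5, trimmed with Trimmomatic 0.39 and quantified with Salmon 0.11.2 on GRCm38.p6 (mm10), and the authors summed transcripts to genes with tximport (lengthScaledTPM). The deposited values are expected counts per gene and well, not normalized for depth, and the length scaling can move counts between samples. Here they were rounded to whole numbers, the 13 mitochondrially encoded genes were left out of CPM, and counts were summed over wells. Where a group had no count, 3 counts stood in its place, and genes with 3 or fewer in each group got no ratio.

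The wells were chosen by measured *Acta2* and *Akr1b7*, and members and gene lists were chosen with earlier results of these data known. The named genes are the 15 with the largest difference of mean log2(CPM + 1) in each direction among those past the fold, and genes of the lists, given with their list counts. No test was run, since wells are not replicates. The calling steps were tested on simulated Poisson counts, drawn for every well from the pooled profile of the members with large changes in some genes. Those counts held no library difference, no near-identical wells and no spread between wells beyond sampling. The test therefore checks the steps only and does not measure false calls in these wells. No doublet caller was run. Near-identical wells were found by Pearson correlation of log2(CPM + 1). Alternatives were other *Acta2* limits, denominators, scalings, depth, well filters, libraries, single wells, gene filters and folds. Gene positions are from GENCODE M21. Software was Python 3.11.15, numpy 2.4.6, pandas 2.3.3, scipy 1.17.1, matplotlib 3.10.9, R 4.3.3 and edgeR 4.0.16. A comparison of actin proteins was not analysed here. Some genes that the rule or the lists name are not reported here.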

Additional observations from a re-analysis of the deposited data

How the results depend on the processing

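The results rest on 34 and 15 wells that are tied to no mouse, and on single wells for many genes. With the limit at 1000 CPM of *Acta2* (41 and 8 wells) 1044 genes were higher past the fold, of which 335 were among the 539, and 260 were lower, of which only 75 were among the 338. There the median log2 ratio of all genes moved from 0.25 to 1.19. At 4000 CPM (27 and 22 wells) 441 were higher and 399 lower, of which 237 and 149 were among the first. In YFP1 alone 508 genes were lower, and at 4-fold 50 were higher and 23 lower. In the other alternatives the numbers stayed within 1.5 times, from 416 to 733 higher. Where the ratios of both libraries were used, from 301 to 435 were lower. A count within this range can hold other genes. The median of all genes shifted by more than 0.1 in some of them, most (0.79) when each gene's highest well was left out. That alternative changed only the ratio over all wells, not the library ratios or the means of log2(CPM + 1). The contractile median was above that of all genes by 0.78, by 0.31 with each gene's highest well left out, by 0.36 at 1000 CPM and by 1.597 in YFP2, but in YFP1 the difference was -0.56 (0.31 against 0.88). It was above that of all genes in the other alternatives (0.49 to 0.89), and *Akr1b7* was from -0.82 in YFP2 to 0.26 in YFP1. Leaving out wells of over 1% endothelial counts, both wells of all 4 pairs correlated at 0.962 or more, or wells of under 1000000 counts was added after the data were seen. No paired analysis was possible because the result comes from no test and the labels pair no Acta2-high well with an Acta2-low well. Values within each library are given instead.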
